A study of Mus musculus with 6 samples.

Results

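The 46 cell cycle and mitosis genes described here are 10 genes of G1 and of entry into S phase, 12 genes of S phase and 24 genes of G2 and mitosis. They were chosen by name, as a module of known cell cycle regulators, and every transcript in the count matrix carrying one of these names was summed into 1 value per gene and pool. The sums comprised 149 of the 114412 deposited transcripts and 46 of the 35974 gene names, and all 46 genes passed the filter on low counts.

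RNA-seq was performed on ovaries of C57BL/6J mouse embryos at E15.5 (E stands for embryonic day). Pregnant mice had received panobinostat (PB), an inhibitor of histone deacetylases, by oral gavage at 5 mg/kg from E6.5 to E15.5. Control mice received the vehicle, DMSO and water, over the same window, and no sample carried a transgene or a mutation. The comparison asks whether exposure of the mother to PB changed transcript levels in the fetal ovary, and each group comprised 3 pools, named control 1 to 3 and PB 1 to 3. The sources differ on the schedule (daily in the sample labels, every other day in the methods). They also differ on the size of a pool, with 4 ovaries in the extraction protocol, 6 to 8 in the series design and at least 8 in the RNA-seq methods, and none says whether the ovaries of a pool came from 1 litter. The p-values therefore measure the spread between pools.

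A dividing cell commits to replication in G1, when cyclins D and E with their kinases inactivate the retinoblastoma proteins and free the E2F factors. It then copies its DNA with the MCM helicase, PCNA and the enzymes of deoxynucleotide synthesis, and enters mitosis when cyclins A and B activate CDK1. Transcription of S phase genes is driven largely by E2F proteins, and that of G2/M genes by the MuvB complex with B-MYB and FOXM1, often through a CHR element and CCAAT boxes. By this stage of development many female germ cells have stopped mitosis and entered meiotic prophase, while the somatic cells around them include dividing and quiescent populations.

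Promoter sequences are shown for 6 members with differing behaviour. Cdc20 and Mcm3 are members in which every PB pool lay below every control pool. Ccnb1 and Ccnb2 encode the mitotic cyclins. Bub1 was the only member lowest in the pool numbered 2 of both groups. Mcm6 carries E2F letters. Each line gives the 150 bases before the annotated start in the RefSeq table of build GRCm38.p6, written 5′ to 3′, with motif letters in capitals.
Cdc20, chr4:118437344-118437493, minus strand: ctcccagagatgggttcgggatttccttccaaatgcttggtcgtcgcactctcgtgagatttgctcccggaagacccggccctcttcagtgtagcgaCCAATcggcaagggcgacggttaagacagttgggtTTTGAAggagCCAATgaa
Ccnb1, chr13:100786487-100786636, minus strand: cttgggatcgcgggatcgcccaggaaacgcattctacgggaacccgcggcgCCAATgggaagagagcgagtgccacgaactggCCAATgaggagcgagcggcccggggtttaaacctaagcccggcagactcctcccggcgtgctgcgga
Ccnb2, chr9:70421555-70421704, minus strand: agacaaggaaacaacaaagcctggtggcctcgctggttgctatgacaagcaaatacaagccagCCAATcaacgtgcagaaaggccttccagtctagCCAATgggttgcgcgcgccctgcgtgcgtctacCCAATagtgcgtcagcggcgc
Bub1, chr2:127831860-127832009, minus strand: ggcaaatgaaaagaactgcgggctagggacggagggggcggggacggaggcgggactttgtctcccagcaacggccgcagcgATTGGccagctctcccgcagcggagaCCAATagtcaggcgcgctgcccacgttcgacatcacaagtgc
Mcm3, chr1:20820313-20820462, minus strand: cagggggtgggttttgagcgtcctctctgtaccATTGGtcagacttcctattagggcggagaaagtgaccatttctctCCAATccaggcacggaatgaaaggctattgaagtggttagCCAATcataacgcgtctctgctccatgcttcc
Mcm6, chr1:128359706-128359855, minus strand: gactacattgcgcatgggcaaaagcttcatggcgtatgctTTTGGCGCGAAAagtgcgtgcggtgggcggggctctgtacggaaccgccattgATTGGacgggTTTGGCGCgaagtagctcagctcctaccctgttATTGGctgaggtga
The capitals mark TTTGAA (the CHR letters) in Cdc20, CCAAT or its complement ATTGG in all 6, and, in Mcm6, TTTGGCGC at both E2F sites, the first of which overlaps a match to TTTCGCGC on the other strand.

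These letters were searched on both strands of the 250 bases upstream of the start, which the table gave for 37 of the 46 members and for 27025 genes in all. A gene with several annotated starts was counted once, as holding the letters where any of its windows did. CCAAT was present in 17 of 19 G2/M genes, in 8 of 11 S phase genes and in 37.5% of all genes. At least 2 copies of CCAAT stood in 11 of the 19 G2/M genes, against 11.5% of all genes. TTTGAA was found in 7 of 19 G2/M genes and in 1 of 11 S phase genes, compared with 18.3% of all genes. Both TTTGAA and CCAAT were found in 7 G2/M genes, and in 6.45% of all. An E2F sequence, searched as TTTCCCGC, TTTCGCGC, TTTGCCGC or TTTGGCGC, was found in 4 of 11 S phase genes, in 1 of 19 G2/M genes and in 2.16% of all. A match describes the letters only and is not evidence of binding.

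The libraries held between 97165644 and 125985399 counts. Marker genes of the ovary were well represented, with the summed level of 9 pregranulosa markers between 1401 and 1593 CPM (counts scaled to library size by TMM) in all pools. The sum of 10 germ cell markers was 1093, 849 and 1091 CPM in the control pools and 1239, 707 and 1326 CPM in the PB pools, so control 2 and PB 2 were the lowest of their groups. The single markers went both ways. Their log2 fold changes of PB over control ranged from −0.58 to 0.38, with 5 below 0 and 5 above, compared with 49.3% of all genes below 0. Sertoli markers summed to between 30.2 and 41.5 CPM. Red blood cell markers summed to 23765, 32427 and 15118 CPM in control and to 20350, 18648 and 18819 CPM in PB. Because whole ovaries were sequenced, fewer cells of a type and less RNA per cell cannot be told apart.

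None of the 46 cell cycle genes passed the test between PB and control ovaries (edgeR quasi-likelihood test), which required at least a 2-fold difference and, over all genes, a false discovery rate (FDR) no higher than 0.05. In the background, 3 of 19435 genes (0.0154%) were called. DESeq2 also called 0 members, against 0.0536% of all genes. At an unadjusted p-value under 0.05, edgeR gave 4 members (Mcm3, Cdc20, Kif20a and Aurka), all lower in PB, compared with 4.46% of all genes in either direction, of which 2.43% were lower and 2.03% higher. DESeq2 also gave 4, against 3.65% of all genes. The smallest FDR of a member was 0.888.

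The log2 fold changes of the members ranged from −0.31 to 1.00. The log2 fold change of PB over control lay below 0 in 34 of the 46 members (73.9%), compared with 49.3% of all genes, and its median was −0.083, compared with 0.002 over all genes. By phase, it was below 0 in 12 of 12 S phase genes, in 18 of 24 G2/M genes and in 4 of 10 G1 and G1/S genes. These counts depended on the scaling. With levels scaled by transcript length and library total, without TMM, the median of all genes moved to 0.11, and the level in PB was below that in control in 22 members, against 23.9% of all genes, among them 6 of 12 S phase genes. Relative to that median, 33 of 46 members and 11 of 12 S phase genes were lower. The standard errors of the members ranged from 0.043 to 0.65 on the log2 scale, with a median of 0.097. All PB pools lay below all control pools in 4 members (8.7%), compared with 5.61% of all genes, and above them in 0 members, compared with 5.1%.

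**Figure D1:**
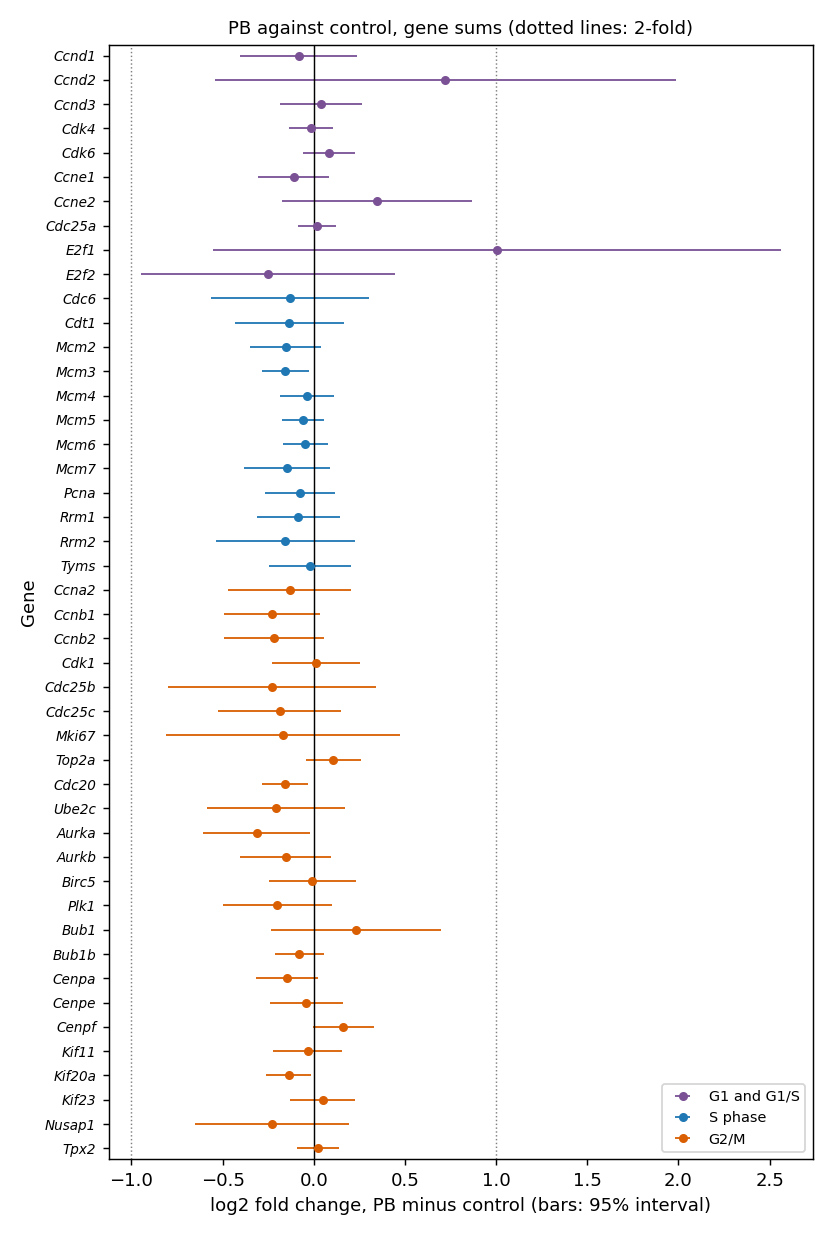
Log2 fold change of PB over control (horizontal axis) for each of the 46 genes, coloured by phase, with bars for the 95% interval from edgeR and dotted lines at a 2-fold change. On the TMM scale the 12 S phase genes sit just left of 0, and the widest intervals belong to E2f1 and Ccnd2.

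Among the G1 and G1/S genes, the D-type cyclins and their kinases set the response to growth signals. Ccnd1, encoding cyclin D1, was at 83.7, 75.9 and 102 CPM in control and at 71.2, 90.7 and 85.3 CPM in PB, and the groups overlapped. The log2 fold change was −0.08 (SE 0.13). Cdk4 was one of the steadiest members, with 328, 345 and 328 CPM in control and 319, 347 and 324 CPM in PB (log2 fold change −0.02, 95% interval −0.13 to 0.10). Cdk6, which encodes the related kinase, averaged 96.5 ± 0.776 and 102 ± 7.09 CPM in the groups (SD, n = 3). Ccnd3 averaged 265 ± 27.5 CPM in control and 273 ± 24.4 CPM in PB (SD, n = 3). Levels between genes were compared as counts scaled by transcript length (per kb) and library total, without TMM. Cdk4 was the highest member on it, at 361 ± 9.66 in control and 386 ± 1.69 in PB, and Cdc25c the lowest, at 6.61 ± 0.0736 and 6.36 ± 0.899 (SD, n = 3).

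Cyclin D2 was set apart by a single pool. Ccnd2 was at 164, 201 and 173 CPM in control and at 159, 580 and 149 CPM in PB, so that only PB 2 was high. The log2 fold change was 0.72 (SE 0.53, FDR 0.888) with all pools and −0.22 without PB 2 (FDR 0.422). The excess lay in 1 transcript, NM_009829.3, with 56354 counts in PB 2 and between 11386 and 13622 counts in the other 5 pools.

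The E-type cyclins activate CDK2 at the start of S phase. Ccne1 was at 40.6, 42.3 and 40.5 CPM in control and at 37.1, 42.5 and 34.8 CPM in PB (log2 fold change −0.11, SE 0.081). Ccne2 was at 71.6, 65.0 and 63.5 CPM in control and at 92.6, 56.2 and 106 CPM in PB. PB 1 and PB 3 were above every control pool and PB 2 below them, and the log2 fold change was 0.35 (SE 0.22, FDR 0.888). Ccne2 overlaps Ints8 on the opposite strand. The library kit keeps strand, but whether reads of Ints8 entered the counts of Ccne2 was not tested. Cdc25a, a phosphatase that activates cyclin-dependent kinases, differed little, with a mean of 87.5 ± 1.71 CPM in control and 88.6 ± 1.97 CPM in PB (SD, n = 3).

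E2f1, the archetypal activator of S phase genes, had the largest log2 fold change of the members, and its value depended on 1 assembled transcript. E2f1 was at 8.98, 42.1 and 7.25 CPM in control and at 37.5, 40.0 and 39.6 CPM in PB. Control 1 and control 3 were low, and control 2 was above every PB pool. The log2 fold change was 1.00 (SE 0.65, FDR 0.888). The merged assembly holds a transcript, MSTRG.10816.6, that is named for the neighbouring gene Necab3 and spans Necab3 and E2f1 on the same strand (mm10, chromosome 2, 154544405 to 154569892). Its counts were 3795, 184 and 3703 for control and 176, 139 and 131 for PB, high in exactly the 2 pools in which E2f1 was low. Counted with E2f1, it gave 47.6, 43.6 and 46.6 CPM in control and 39.3, 41.4 and 40.7 CPM in PB. On this sum every PB pool was below every control pool, and the log2 fold change was −0.18 (SE 0.055, FDR 0.888). The spanning transcript has 5131 exonic bases, against 2739 in NM_007891.5 of E2f1, and also covers Necab3. All of its counts were added, so the sum may include reads of Necab3. The share of its counts that came from E2f1 was not tested. Necab3 as named had a log2 fold change of −1.94, and 0.35 without that transcript. Without control 2, E2f1 as named was called higher in PB (log2 fold change 2.26, SE 0.12, FDR 0.0167), when 5 of all genes (0.0251%) were called. E2f2 was at 67.0, 96.3 and 53.8 CPM in control and at 60.5, 80.7 and 41.5 CPM in PB (log2 fold change −0.25, SE 0.29).

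**Figure D2:**
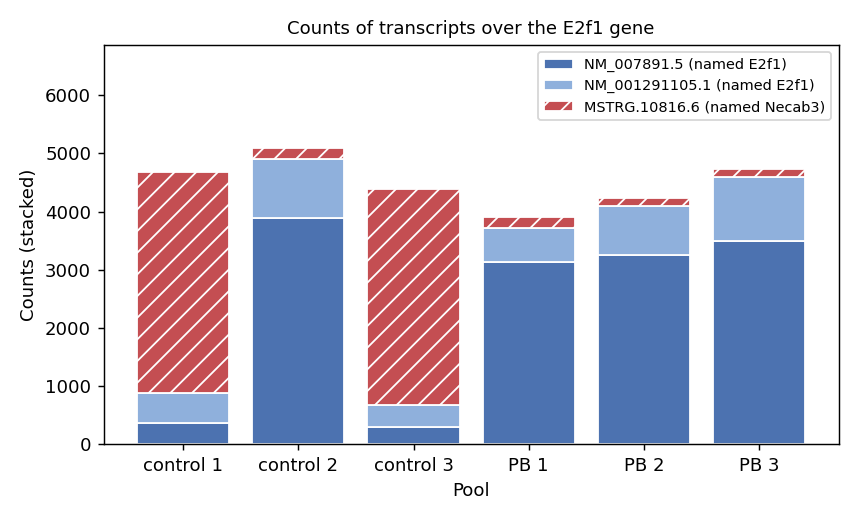
Stacked counts per pool (vertical axis) of both transcripts named E2f1 and of the assembled transcript that spans Necab3 and E2f1. The total stays between 3899 and 5088 counts, while the hatched transcript holds most of it in control 1 and control 3 only.

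The log2 fold changes of the 12 S phase genes, on the TMM scale, lay between −0.16 and −0.02 with a median of −0.11. Of them, 0 were called and 1 (Mcm3) had an unadjusted p-value under 0.05. Mcm2 to Mcm7 encode the replicative helicase. Mcm3 was at 194, 194 and 192 CPM in control and at 171, 186 and 164 CPM in PB, with no overlap between the groups. The log2 fold change was −0.16 (95% interval −0.28 to −0.03, FDR 0.888). With known transcripts only it was 0.11, since the assembled transcript MSTRG.67.1 held 11453 counts in control 2 and 0 counts in the other pools. Mcm2 was at 188, 199 and 185 CPM in control and at 167, 192 and 155 CPM in PB, where PB 2 lay within the control range (log2 fold change −0.15, SE 0.082). Mcm7 was at 199, 224 and 200 CPM in control and at 182, 213 and 167 CPM in PB (log2 fold change −0.15, SE 0.098). Mcm4, Mcm5 and Mcm6 showed smaller differences, with log2 fold changes of −0.04, −0.06 and −0.05.

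Loading of the helicase depends on Cdc6 and Cdt1. Cdc6 was at 30.8, 42.6 and 35.2 CPM in control and at 32.2, 40.5 and 26.5 CPM in PB (log2 fold change −0.13, SE 0.18). Cdt1 was at 61.9, 74.5 and 65.2 CPM in control and at 62.3, 69.9 and 51.4 CPM in PB (log2 fold change −0.14, SE 0.12). In both genes the pool numbered 2 was the highest of each group. Pcna, the sliding clamp of the DNA polymerases, averaged 215 ± 18.0 CPM in control and 204 ± 15.4 CPM in PB (SD, n = 3). Rrm1 and Rrm2 encode the subunits of ribonucleotide reductase. Rrm1 averaged 258 ± 25.8 and 243 ± 23.6 CPM, and Rrm2 126 ± 16.3 and 114 ± 22.1 CPM, in control and PB (SD, n = 3). Tyms, encoding thymidylate synthase, differed least of the S phase genes, with a log2 fold change of −0.02 (95% interval −0.24 to 0.20).

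In the G2/M genes the median log2 fold change was −0.14, with a range of −0.31 to 0.23. The cyclins that drive CDK1 were at lower mean levels in PB. Ccnb1 was at 86.1, 102 and 85.3 CPM in control and at 76.2, 88.1 and 69.4 CPM in PB, and only PB 2 reached the control range (log2 fold change −0.23, SE 0.11). Ccnb2 was at 62.6, 76.8 and 64.3 CPM in control and 55.0, 66.4 and 53.6 CPM in PB, where again only PB 2 reached the control range (log2 fold change −0.22, SE 0.11). Ccna2 was at 140, 173 and 136 CPM in control and at 132, 160 and 117 CPM in PB (log2 fold change −0.13, SE 0.14). Cdk1 itself averaged 57.5 ± 7.54 CPM in control and 58.0 ± 3.15 CPM in PB (SD, n = 3). Cdc25b and Cdc25c, phosphatases that activate CDK1, had log2 fold changes of −0.23 (SE 0.24) and −0.19 (SE 0.14).

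Entry into anaphase depends on CDC20 and UBE2C, which work with the anaphase-promoting complex. Cdc20 was at 80.9, 88.0 and 83.7 CPM in control and at 73.4, 78.1 and 75.1 CPM in PB, with no overlap. The log2 fold change was −0.16 (95% interval −0.28 to −0.03, FDR 0.888), and it rested on 1 transcript. Ube2c was at 65.9, 91.4 and 62.5 CPM in control and at 60.6, 71.6 and 58.5 CPM in PB (log2 fold change −0.21, SE 0.16).

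The mitotic kinases build and control the spindle. Aurka was at 38.7, 49.7 and 38.2 CPM in control and at 36.8, 30.6 and 34.6 CPM in PB. Every PB pool was below every control pool, and this was the lowest log2 fold change of the members (−0.31, 95% interval −0.61 to −0.02, FDR 0.888). Without control 2, which was high, it was −0.18. Aurkb and Birc5 encode subunits of the chromosomal passenger complex. Aurkb averaged 36.5 ± 4.07 CPM in control and 32.8 ± 3.11 CPM in PB, and Birc5 50.9 ± 6.69 and 50.7 ± 2.69 CPM (SD, n = 3). Plk1 was at 57.0, 68.4 and 53.7 CPM in control and at 47.4, 60.0 and 48.7 CPM in PB (log2 fold change −0.20, SE 0.13). Aurka overlaps Cstf1, Cdc20 overlaps Elovl1 and Kif20a overlaps Cdc23 and Brd8, each on the opposite strand. Whether reads of these neighbours entered the counts of the members was not tested.

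The spindle checkpoint and kinetochore genes varied in both directions. Bub1, a checkpoint kinase, was at 147, 131 and 141 CPM in control and at 180, 114 and 199 CPM in PB. PB 1 and PB 3 lay above every control pool and PB 2 below them (log2 fold change 0.23, SE 0.19). Its partner Bub1b was lower by 0.08 on the log2 scale with far less spread, at 85.0, 94.5 and 87.1 CPM in control and at 82.0, 86.8 and 83.6 CPM in PB. Cenpf was at 101, 110 and 115 CPM in control and at 124, 113 and 128 CPM in PB (log2 fold change 0.16, 95% interval −0.0046 to 0.33). Cenpa, the centromeric histone H3, averaged 52.3 ± 4.15 and 47.3 ± 2.00 CPM, and Cenpe, a kinetochore motor, 71.1 ± 5.91 and 69.1 ± 5.26 CPM, in control and PB (SD, n = 3).

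Kinesins and spindle proteins complete the list. Kif20a, a motor of cytokinesis, was at 80.5, 88.6 and 84.1 CPM in control and at 77.7, 77.7 and 74.7 CPM in PB. The groups did not overlap, and the log2 fold change was −0.14 (95% interval −0.26 to −0.01, FDR 0.888). Kif11, which keeps the spindle bipolar, and Kif23, of the central spindle, had log2 fold changes of −0.03 and 0.05. Tpx2, an activator of Aurora A, averaged 113 ± 4.17 and 115 ± 3.67 CPM in control and PB (SD, n = 3). Nusap1 was at 53.5, 77.8 and 51.0 CPM in control and at 56.5, 45.2 and 54.0 CPM in PB, so that control 2 was the highest pool and PB 2 the lowest.

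Mki67, which encodes the proliferation antigen Ki-67, was at 238, 394 and 311 CPM in control and at 275, 371 and 193 CPM in PB (log2 fold change −0.17, SE 0.27). Top2a, encoding the topoisomerase that untangles chromosomes, was at 462, 477 and 456 CPM in control and at 514, 460 and 529 CPM in PB, and PB 2 again lay within the control range (log2 fold change 0.11, SE 0.063).

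**Figure D3:**
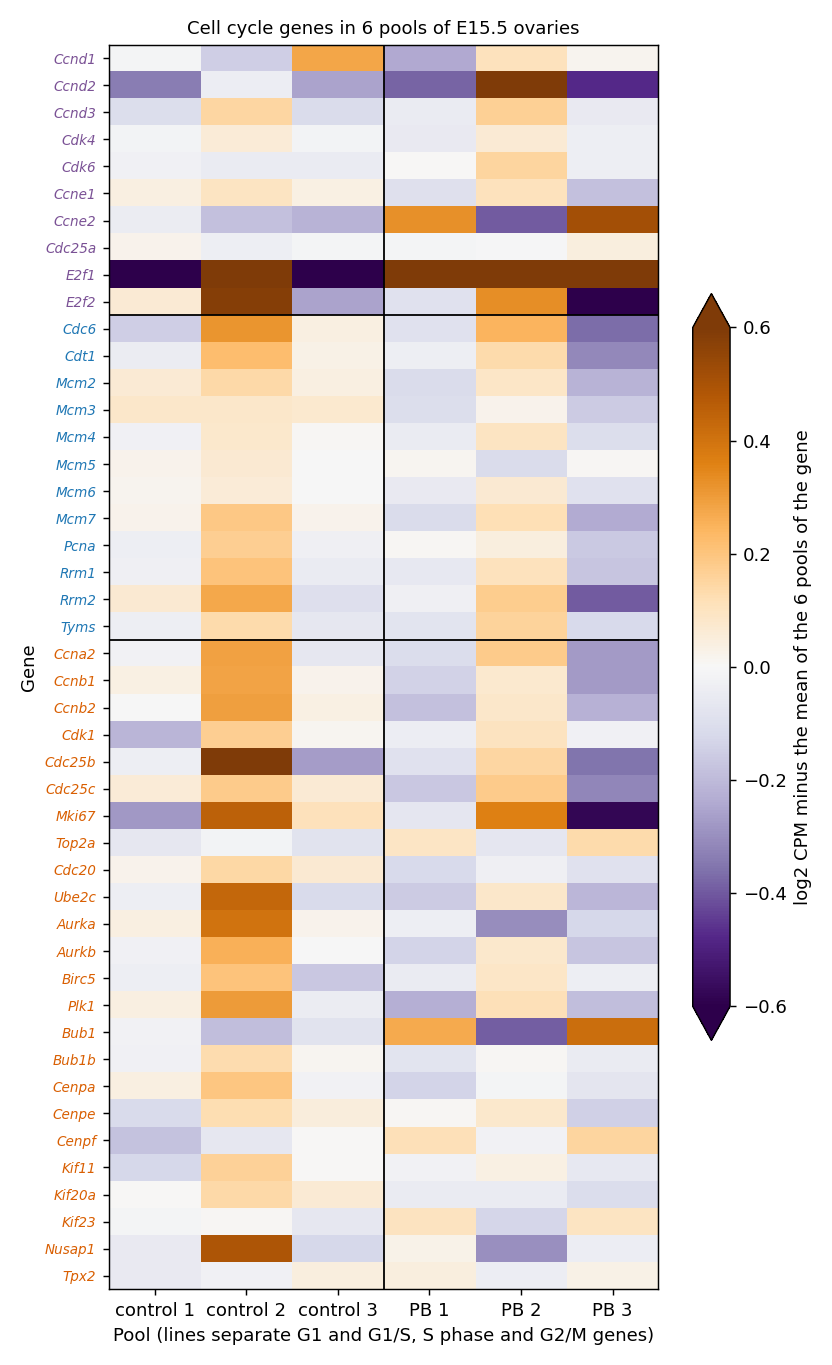
Level of each of the 46 genes in each pool (columns), as log2 CPM minus the mean of the 6 pools of that gene. Orange is above the mean, purple below it, and colours saturate at the ends of the bar. Control 2 is orange in most rows. Bub1, Ccne2, Aurka and Nusap1 are among the rows that are purple in PB 2, where most other genes are orange.

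The order of the pools was shared by many members. The pool numbered 2 was the highest of its group, in control and in PB alike, in 33 members (71.7%), compared with 18.7% of all genes. This was the case in 11 of 12 S phase genes, in 16 of 24 G2/M genes and in 6 of 10 G1 and G1/S genes. Control 2 was the highest control pool in 39 members, and PB 2 the highest PB pool in 35. PB 2 was the lowest PB pool in 9 members, namely Ccne2, Mcm5, Top2a, Aurka, Bub1, Cenpf, Kif23, Nusap1 and Tpx2. Only Bub1 was the lowest in both groups, compared with 17.2% of all genes. Germ cell markers ran the other way. All 10 were lowest in control 2 among the control pools, and 8 of 10 were lowest in PB 2 among the PB pools. All 7 red blood cell markers were highest in control 2 among the control pools. Only 2 of them were highest in the pool numbered 2 of both groups, and their sum was lowest in PB 2 among the PB pools. The part of these cell types in the levels of the cell cycle genes was not tested.

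**Figure D4:**
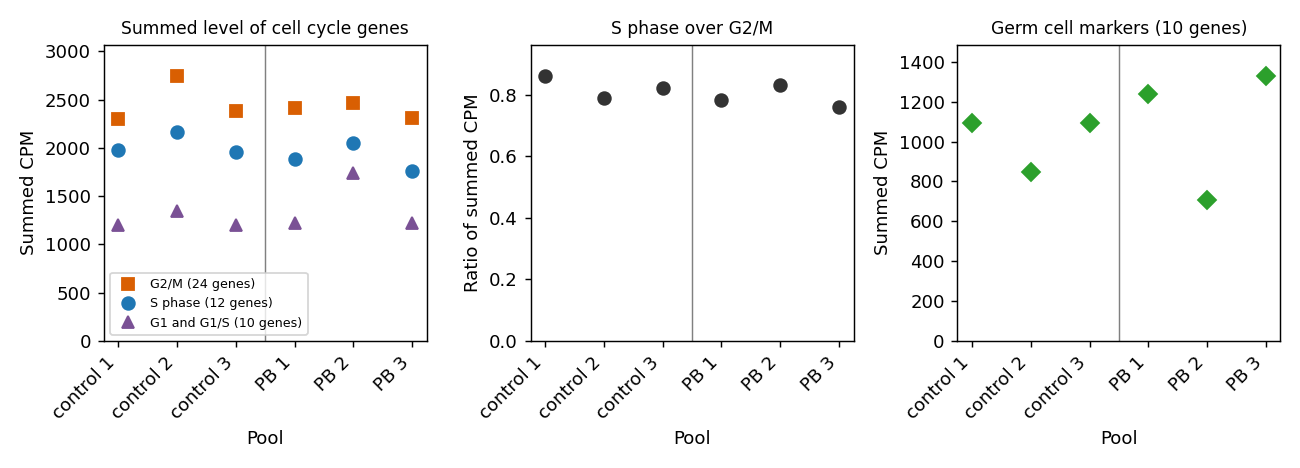
Summed CPM of the G1 and G1/S, S phase and G2/M genes (left), ratio of the S phase to the G2/M sum (middle) and summed CPM of 10 germ cell markers (right) in each pool. The cell cycle sums are highest, and the germ cell sum is lowest, in control 2 and PB 2 of their groups, and the ratios of the groups overlap.

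Fits without these pools gave other counts. Without PB 2, 15 members had an unadjusted p-value under 0.05, compared with 12.3% of all genes. Of them 10 were lower, compared with 4.9% of all genes, and 5 were higher, compared with 7.41%. The 5 higher genes were Ccne2 (log2 fold change 0.57), Bub1 (0.44), Cenpf (0.21), Top2a (0.16) and Kif23 (0.12), and the lower genes included Ccnb1, Ccnb2, Plk1, Mcm2, Mcm3 and Mcm7. The smallest FDR of a member was then 0.103, for Ccne2. Without control 2 and PB 2, 15 members had an unadjusted p-value under 0.05, compared with 11.4% of all genes. Of them 9 were lower, compared with 4.47% of all genes, and 6 higher, compared with 6.91%. The only member called was E2f1 as named, with 0.0511% of all genes called. Without control 2 alone, 1 member (E2f1 as named, higher) had an unadjusted p-value under 0.05, compared with 3.67% of all genes. Mcm3, Cdc20, Kif20a and Aurka were then not among them. In that fit 26 of the 46 log2 fold changes were below 0, and the share of all genes is not given here.

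The proportion of S phase to G2/M transcripts was compared next, as a description with no test. The S phase genes summed to 1974, 2160 and 1955 CPM for the control pools and to 1888, 2053 and 1758 CPM for the PB pools. The G2/M genes summed to 2298, 2740 and 2379 CPM and to 2409, 2467 and 2312 CPM. Their ratio was 0.859, 0.788 and 0.822 in control and 0.784, 0.832 and 0.760 in PB, so the groups overlapped. The means were 0.823 ± 0.0355 in control and 0.792 ± 0.0368 in PB (SD, n = 3), and the log2 ratio of the means was −0.06, within the spread between pools. Without PB 2 the log2 ratio was −0.092, without control 2 −0.085, without PB 3 −0.027 and without control 1 −0.023. Without control 2 and PB 2 together it was −0.12, and both remaining control pools were above both PB pools. The G1 and G1/S sum averaged 1249 ± 84.6 CPM in control and 1395 ± 295 CPM in PB, the latter with Ccnd2 of PB 2 in it.

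In members such as Mcm7, the transcripts were less steady than the sum. StringTie divides the reads of a gene among its transcripts. The biological coefficient of variation was 98.4% over all transcripts tested in the series and 20.9% over all gene sums tested. It was not computed for the members alone. Of the 149 member transcripts, 123 matched a RefSeq intron chain and 26 were other assembled forms. Of the 131 that were tested, edgeR called 0, against 0.0332% of all transcripts, and 8 had an unadjusted p-value under 0.05, against 3.56% of all transcripts. Of the 35 members with more than 1 transcript, 24 had the same leading transcript in every pool and 11 did not.

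DESeq2 called 1 member transcript, against 1.84% of all transcripts. It was XM_006504556.3 of Mcm7, with 16067, 1497 and 6 counts in control and 6, 18 and 12 counts in PB. Control 1 held nearly all of its counts, and control 3 was at the level of PB. Its FDR was 0.000278 by DESeq2 and 1.00 by edgeR, whereas the Mcm7 sum differed by −0.15 on the log2 scale. In PB 2, 18707 counts of Mcm7 were on MSTRG.14579.2, which had 0 counts in every other pool. Mcm5 was also divided unevenly, and its XR_001778410.1 held 21599 counts in PB 1 and between 4 and 1975 counts elsewhere. Among the leading transcripts, NM_009004.4 of Kif20a had 7004, 8240 and 5352 counts in control and 4597, 5417 and 5106 counts in PB (log2 fold change −0.47, edgeR FDR 1.00). NM_007681.3 of Cenpa was at 16.0, 14.9 and 14.2 CPM in control and at 11.9, 11.6 and 11.5 CPM in PB. It had a DESeq2 FDR of 0.00477 but missed the 2-fold bound (log2 fold change −0.37), and its unadjusted edgeR p-value was 0.024.

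**Figure D5:**
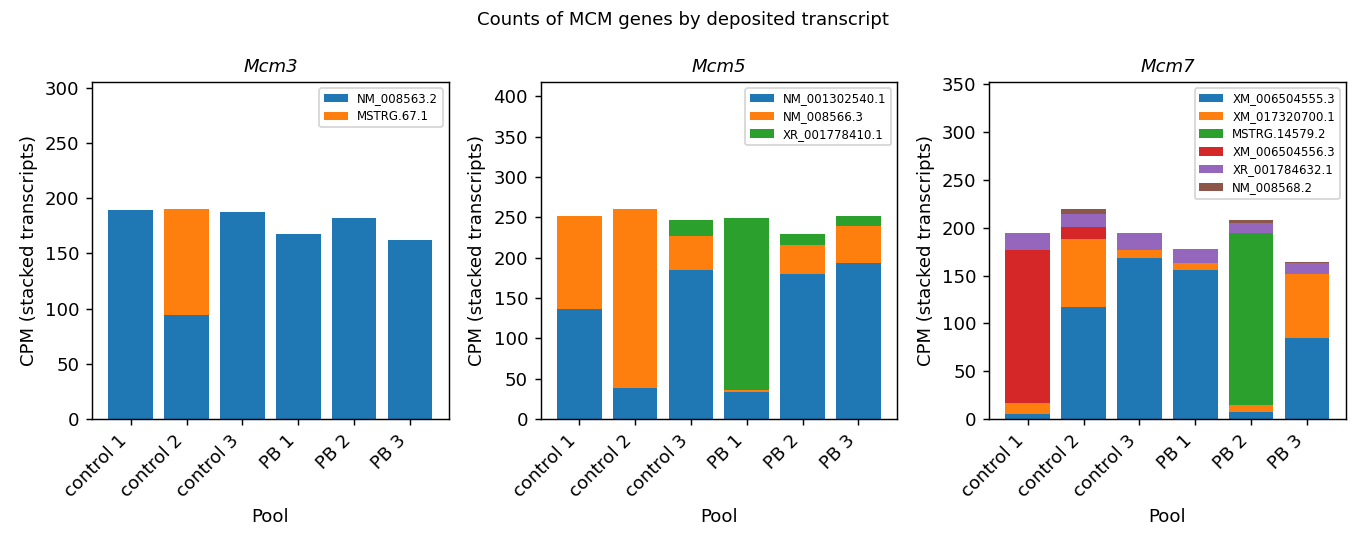
CPM of each deposited transcript (stacked colours) of Mcm3, Mcm5 and Mcm7 in each pool. The full height of the bars is similar across the pools, whereas the transcript that holds most of it differs between pools of the same group.

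Other genes of the cell cycle were listed by role. Of 118 listed genes 117 were tested and 0 were called (edgeR). An unadjusted p-value under 0.05 was found for 6, near the 4.46% of all genes, and 82 log2 fold changes were below 0, compared with 49.3% of all genes. Cdkn1b, encoding the inhibitor p27, was the 1 higher gene, at 206, 184 and 184 CPM in control and at 240, 206 and 209 CPM in PB (log2 fold change 0.19, FDR 0.888). The 5 lower genes were Tfdp1, the dimer partner of E2F (log2 fold change −0.15), Dut, which hydrolyses dUTP (−0.22), the CDK4 and CDK6 inhibitor Cdkn2d (−0.16), the kinesin Kif2c (−0.13) and the kinase Nek2 (−0.15). Cdkn1a, the inhibitor p21 that many cells induce after exposure to HDAC inhibitors, was at 33.4, 36.5 and 39.1 CPM in control and at 31.6, 42.4 and 34.4 CPM in PB (log2 fold change −0.01, 95% interval −0.30 to 0.28). Among the regulators, Foxm1 had a log2 fold change of −0.01, Mybl2, which encodes B-MYB, of −0.24 (SE 0.10) and E2f4 of −0.18. Rbl1, of the retinoblastoma family, was at −0.10. Rpa2 and Chaf1a, of DNA replication, were at −0.14 and −0.11, and the mitotic kinesin Kif22 at −0.25. Fzr1, Fbxo5 and Anapc11, of the anaphase-promoting complex and its regulators, were at −0.18, −0.15 and −0.05. The 38 other replication genes had a median log2 fold change of −0.06, the 39 other mitosis genes −0.04, and the 15 genes of the anaphase-promoting complex 0.00.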

How the data were processed

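The authors aligned the stranded reads to mm10 with HISAT2 2.1.0, assembled and merged transcripts with StringTie 1.3.5, and deposited raw counts per transcript. Their comparison, made with DESeq2 1.30.0, was deposited with log2 fold changes, p-values and 6 normalized columns, none of which were used. That table gave the gene names, and the deposited annotation the positions and exon lengths. Transcripts without a name (3.05% to 4.49% of a pool) were left out of the sums.

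For the sums, edgeR 4.0.16 (R 4.3.3, limma 3.58.1) was run with TMM, filterByExpr (minimum count 10, total 15) and the quasi-likelihood F-test without a block. Calls required a fold of 2 or more and an FDR (Benjamini-Hochberg, over all genes) of 0.05 or less. The SE is the log2 fold change divided by the root of F. DESeq2 1.42.0 was an alternative. The code was tested on simulated data. A count of 0 allows up to 3 counts, for counting error only.

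All members are named. The members, lists and tests were chosen with earlier results of these data known, and the scalings without TMM and the fits without control 2 and PB 2 together, and with the Necab3 transcript counted as E2f1, after these data were seen. In the other lists, genes with an unadjusted p-value under 0.05, the 3 smallest p-values of a list and Cdkn1a were named by rule. Foxm1, the transcripts other than called or leading ones, and the promoters shown were picked after their values were seen. Samples were grouped by their labels.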

Additional observations from a re-analysis of the deposited data

How the results depend on the processing

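No member was called under DESeq2's size factors, no filter, the stricter filter, the replicate block or known transcripts only. The DESeq2 Wald test called 11 genes in all and 1 member transcript. Of 147 member transcripts in that test, 16 had an unadjusted p-value under 0.05. The share of all transcripts is not given here, so this count cannot be set against a background. Pools of the same number had correlations of deviations of 0.093, 0.147 and −0.018. Control 2 correlated best with PB 2, control 1 almost equally with PB 1 (0.093) and PB 3 (0.096), and control 3 best with PB 2 (0.037). Whether the replicate numbers pair the pools was not tested. A replicate block called 0 genes and put Birc5 at 1.16e-05 (log2). It gave 15 members at an unadjusted p-value under 0.05, compared with 5.61% of all genes. Of them 14 were lower in PB and 1, E2f1 as named, was higher. The share of all genes by direction is not given here for this fit. Without control 2 and PB 2, 10 genes and 1 member were called, and 15 members and 13 member transcripts had an unadjusted p-value under 0.05. For these transcripts too, the share of all transcripts is not given here. The log2 ratio of S phase to G2/M was then −0.12. Log2 fold changes crossed 0 for Ccnd2 (−0.13), Birc5 (0.057), Kif11 (0.020) and Nusap1 (0.081). Known transcripts only called 8 genes and turned Mcm3 (0.11), Cdk1 (−0.17), Cenpf (−0.21) and Kif23 (−0.61). They gave 2 members at an unadjusted p-value under 0.05, compared with 4.18% of all genes. Length-scaled levels without TMM put 22 members below 0. With the Necab3 transcript counted, E2f1 was at −0.18. The cause of these shifts was not tested.

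Leaving out 1 pool at a time called 0 to 1 members and 3 to 9 genes. Across these fits 0 to 15 members had an unadjusted p-value under 0.05, against 2.78% to 12.3% of all genes. Both were lowest without PB 3 and highest without PB 2. Over these fits the log2 fold change spanned −0.18 to 0.040 for Ccnd1, −0.22 to 1.04 for Ccnd2, −0.035 to 0.13 for Ccnd3, −0.084 to 0.10 for Cdk1, −0.052 to 0.0065 for Cdk4, −0.51 to 0.0073 for E2f2, −0.11 to 0.040 for Tyms, −0.0013 to 0.031 for Cdc25a, −0.40 to 0.061 for Cdc25b, −0.43 to 0.039 for Mki67, −0.092 to 0.098 for Birc5, −0.11 to 0.018 for Cenpe, −0.10 to 0.042 for Kif11, −0.30 to 0.0064 for Cdc6 and −0.096 to 0.0026 for Mcm4. Of 323 member values under the other settings 312 kept their sign and side of the threshold.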
